A study of Mus musculus with 10 samples.

Results

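Coenzyme A (CoA) and lipoic acid are made by short chains of enzymes, and the 10 genes described here encode them in the mouse: Pank1, Pank2, Pank3, Pank4, Ppcs, Ppcdc and Coasy for CoA, and Lias, Lipt1 and Lipt2 for lipoic acid. They were chosen by gene symbol, with earlier results of these data known, and all 10 were found among the 15075 genes of the deposited expression table. The table holds polyadenylated mRNA from interscapular brown adipose tissue (iBAT), the thermogenic fat depot between the shoulder blades, of 5 Control and 5 AdCKO mice. The comparison asks which genes change in brown fat when adipocytes cannot make cardiolipin, the signature phospholipid of the mitochondrial inner membrane. All mice were C57BL/6, 20 weeks old and kept at room temperature, and each gave 1 library. Control mice, labelled wild-type, carried Crls1 alleles with loxP sites around exon 4 (Crls1 f/f) and no Cre. AdCKO mice carried the same floxed alleles with Adipoq-Cre, which is driven by the adiponectin promoter and is active in adipocytes, so that other cells of the depot keep cardiolipin synthase. Values are normalized reads per kb of counted exon, which allows levels to be compared between genes as well as between mice.

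CoA is built from pantothenate, vitamin B5. A pantothenate kinase phosphorylates it in the step that limits the pathway, PPCS joins the product to cysteine, PPCDC removes the carboxyl group, and the bifunctional enzyme COASY adds the adenosine part and the last phosphate. CoA then carries acyl groups through fatty acid oxidation and the tricarboxylic acid cycle, both of which run at high rates in active brown fat. Lipoic acid is made inside mitochondria on the proteins that use it: LIPT2 moves an octanoyl chain from the mitochondrial acyl carrier protein to the glycine cleavage H protein, LIAS inserts the sulfur atoms, and LIPT1 passes the lipoyl group to the E2 subunits of the 2-oxoacid dehydrogenases.

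The targeted gene separated the groups. Crls1 (NM_001024385, mm9 chr2:132672402-132692504) measured 1291, 927, 813, 1101 and 1170 normalized reads per kb in Control replicates 1 to 5 and 193, 195, 249, 208 and 242 in AdCKO replicates 1 to 5, a log2 fold change of -2.27 (SE 0.13). The libraries summed to between 7615403 and 8171138 normalized reads in Control and to between 5419800 and 5843024 in AdCKO, without overlap. Among markers of cell types, 3 of 6 brown adipocyte genes fell and 1, Ppargc1a, rose (summed level 46938 to 69984 in Control, 14938 to 34165 in AdCKO). Most of that sum was Ucp1 and Cidea. Of the 7 adipocyte genes 3 fell and 1 rose (summed level 153678 to 185053 against 113768 to 133136). Most of the adipocyte sum was Fabp4, at 134139 to 163946 in Control and 101185 to 115806 in AdCKO, which was not called (limma adjusted p = 0.0205). All 7 macrophage genes rose (summed level 421 to 1198 against 5719 to 7807), as did all 6 fibroblast genes (968 to 1282 against 4134 to 5835). Of the endothelial genes 1 of 5 rose, and of the lymphocyte genes 1 of the 3 that were tested. For comparison, 28.0% of all genes tested were called lower and 25.6% higher. The 6 lymphocyte genes summed to 167 in AdCKO replicate 1, against 38.3 to 58.4 in the other AdCKO libraries and 33.7 to 49.7 in Control. The 8 skeletal muscle genes summed to between 94.8 and 123 in Control and to 139 and 127 in AdCKO replicates 3 and 5, but to 5375, 21203 and 8109 in AdCKO replicates 1, 2 and 4. Muscle transcripts were thus present in 3 of the 5 AdCKO libraries, although only 1 of the 8 muscle genes, Acta1, passed the test between groups, and the 10 genes were also compared without these 3 libraries. No marker was at 0 in any library. Fewer brown adipocytes and less RNA of a gene per adipocyte cannot be told apart in these bulk samples, and the part of the cell type differences in the results was not tested.

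Of the 10 genes, 7 were lower in AdCKO (limma with Benjamini-Hochberg adjustment over 11244 genes, adjusted p under 0.01) and none was higher. At an unadjusted p under 0.05, 8 were lower and 0 higher. The same 7 genes, Pank1, Pank2, Ppcdc, Coasy, Lias, Lipt1 and Lipt2, had every AdCKO value below every Control value. Among all genes tested 28.0% were called lower and 25.6% higher, and 26.4% had all AdCKO values below all Control values. The median log2 fold change was -0.47 over the 10 genes and -0.01 over all genes tested. These counts used the between-library scaling of the authors. When every library was instead brought to 1 common total of normalized reads (equal totals), the median of all genes moved up by 0.47 (log2) in AdCKO, 9.77% of genes were called lower and 60.6% higher, and among the 10 genes Pank1, Coasy and Lipt1 were called lower and Pank4 higher. With an exact two-sided permutation test over the 10 mice, each of the 7 genes gave p = 0.0079, the smallest that 5 against 5 allows. Groups that do not overlap always give this value, so it adds nothing to the lack of overlap.

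**Figure D1:**
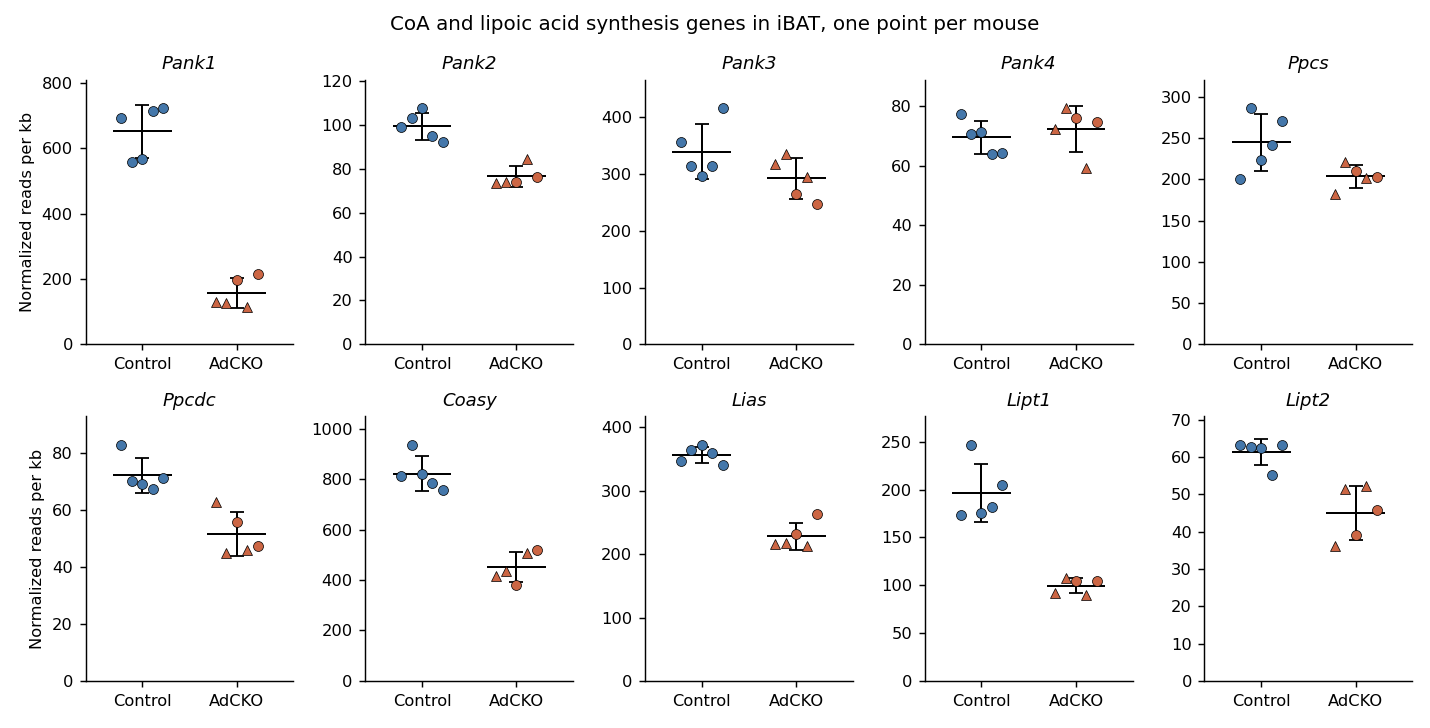
Level of each of the 10 genes in iBAT, in normalized reads per kb on a linear axis that starts at 0, with 1 point per mouse, a horizontal bar at the mean and a vertical bar of 1 SD (n = 5 per group). Triangles mark AdCKO replicates 1, 2 and 4, which held muscle transcripts. Pank1 lies at 559 to 723 in Control and 114 to 215 in AdCKO, whereas the groups overlap for Pank3, Pank4 and Ppcs.

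Pank1 encodes a pantothenate kinase, and it showed the largest fold change of the 10 genes. Pank1 (NM_001114339, mm9 chr19:34881426-34953945, minus strand) measured 694, 559, 568, 713 and 723 normalized reads per kb in Control replicates 1 to 5 and 131, 127, 196, 114 and 215 in AdCKO replicates 1 to 5. The highest AdCKO value was well below the lowest Control value. The means were 651 ± 81.0 and 157 ± 45.6 (SD, n = 5 each), so that AdCKO retained 24.0% of the Control level. The log2 fold change was -2.09 (SE 0.17, 95% interval -2.46 to -1.72, limma adjusted p = 5.74e-07), and it remained negative and past the threshold with equal totals (-1.61). Within AdCKO, the libraries with muscle transcripts held 114 to 131 and the libraries without them 196 to 215. The summed level of the 6 brown adipocyte genes, mostly Ucp1 and Cidea, split the same way. It was 20656, 20804 and 14938 in AdCKO replicates 1, 2 and 4 and 27726 and 34165 in replicates 3 and 5. Of these genes only Elovl3 did not split, at 1042 in replicate 5 against 1221 and 1181 in replicates 1 and 2. The splits by muscle transcripts and by the brown adipocyte sum cannot be told apart. With AdCKO replicates 3 and 5 alone the log2 fold change of Pank1 was -1.65 (limma adjusted p = 4.3e-06).

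Pank1 has alternative first exons, which the values cannot separate because they are summed over the exons of the gene. The mm9 annotation gives an outer first exon of 932 bases at chr19:34953014-34953945 and an inner one of 232 bases at chr19:34952176-34952407. The 250 bases before each of the corresponding RefSeq starts are shown because Pank1 is the gene that fell most. They are from RefSeq on GRCm38.p6, minus strand, at chr19:34879456-34879705 for the outer start and chr19:34877918-34878167 for the inner start. Capitals mark a CCAAT box (CCAAT or its reverse complement ATTGG).
Pank1 outer start: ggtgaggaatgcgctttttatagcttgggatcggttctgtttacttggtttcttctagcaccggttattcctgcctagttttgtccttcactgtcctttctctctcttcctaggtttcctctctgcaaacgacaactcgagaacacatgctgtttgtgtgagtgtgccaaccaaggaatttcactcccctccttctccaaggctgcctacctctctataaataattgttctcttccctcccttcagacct
Pank1 inner start: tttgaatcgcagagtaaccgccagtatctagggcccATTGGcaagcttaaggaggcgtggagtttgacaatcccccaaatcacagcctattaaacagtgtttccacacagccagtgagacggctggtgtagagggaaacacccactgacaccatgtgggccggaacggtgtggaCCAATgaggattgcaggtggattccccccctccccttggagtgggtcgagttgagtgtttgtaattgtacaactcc
The inner window holds 2 CCAAT boxes, whose first bases lie 214 and 76 bases before the start, and the outer window holds none. A CCAAT box on either strand occurs in 33.8% of the 32851 windows of this length in the RefSeq promoter table, and in 7 of the 14 windows of the members. The table has 9 of the 10 genes, some with several windows, and the genes with a box were Lipt1, Lipt2, Pank1, Pank2, Pank3, Pank4 and Ppcdc. The other motifs searched on both strands were the E-box CACGTG (6.02% of all windows; Lipt1), the NRF1 motif (3.74%; Pank2), the ERR motif TCAAGGTCA (0.387%; no member) and the CARE motif TGATGNAAT (0.816%; no member). No match of one motif overlapped a match of another. A match in the letters is a description of the window and no evidence of binding. Pank3 and Pank4, which were not called, hold a CCAAT box as well as members that fell.

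The other pantothenate kinase genes changed less. Pank2, whose human counterpart is mutated in a neurodegenerative disease with brain iron accumulation, measured 98.98, 103, 108, 95.1 and 92.3 normalized reads per kb in Control and 73.6, 74.2, 74.2, 84.7 and 76.3 in AdCKO (NM_153501, mm9 chr2:131088236-131124924, plus strand). The groups did not overlap, although AdCKO replicate 4 came closer to Control than the other AdCKO mice. Its log2 difference was -0.37 (SE 0.07; adjusted p = 0.000362 by limma), and AdCKO retained 77.0% of the Control mean. Equal totals turned the value of Pank2 to 0.10. In the mm9 annotation the exons of Pank2, for which 3565 bases were counted, share 1125 bases with exons of Rnf24 on the opposite strand and 359 with Gm14233 on the same strand. Rnf24 itself fell from 114 ± 18.2 to 56.3 ± 2.19. Whether counting used the strand is not given in the sources used here, so the value of Pank2 is uncertain by the reads it may share.

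Pank3 encodes a cytosolic pantothenate kinase (NM_145962, mm9 chr11:35582997-35604787, plus strand). It measured 357, 314, 298, 314 and 417 normalized reads per kb in Control and 318, 336, 266, 294 and 248 in AdCKO. The groups overlapped, and the log2 fold change was -0.21 (95% interval -0.45 to 0.02, limma adjusted p = 0.10). The AdCKO libraries with muscle transcripts held 294 to 336 and those without them 248 to 266, the opposite order to Pank1. Without the muscle-bearing libraries the log2 fold change of Pank3 was -0.39 (adjusted p = 0.0275), which also missed the threshold, and with equal totals it was 0.27.

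Pank4 encodes a relative of these kinases that lacks kinase activity and instead holds a phosphatase domain (NM_172990, mm9 chr4:154338242-154355047, plus strand). It measured 77.3, 70.8, 71.5, 64.1 and 64.4 normalized reads per kb in Control and 72.5, 79.4, 76.2, 59.5 and 74.8 in AdCKO. The ranges largely coincided. The log2 fold change was 0.05 (95% interval -0.14 to 0.25, limma adjusted p = 0.61), which leaves room for a small change in either direction. Pank4 was called higher with equal totals (0.53, adjusted p = 0.000192), close to the shift of all genes.

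Set against each other per kb, Pank1 and Pank3 changed places among the 4 Pank genes. In Control, Pank1 made up 53.4 to 60.1% of the summed level of the 4 genes and Pank3 26.5 to 32.1%. In AdCKO, Pank1 made up 20.6 to 35.0% and Pank3 40.3 to 54.4%, so that Pank3 exceeded Pank1 in each AdCKO mouse and Pank1 exceeded Pank3 in each Control mouse. The shares of the other two also differed, from 8.68% ± 1.35 to 12.9% ± 1.39 for Pank2 and from 6.06% ± 0.84 to 12.1% ± 0.80 for Pank4 (SD, n = 5 each). A scaling factor applied to a whole library cancels in these shares. The summed level of the 4 genes was 1160 ± 112 in Control and 598 ± 26.8 in AdCKO, or 51.5% of Control. The AdCKO sums were close together, at 553 to 616, including the libraries with muscle transcripts, while the shares within them were not. The Pank1 share was 32.0% and 35.0% in AdCKO replicates 3 and 5 and lower in replicates 1, 2 and 4, down to 20.6%. The shares were not tested, because they follow from the values already compared.

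**Figure D2:**
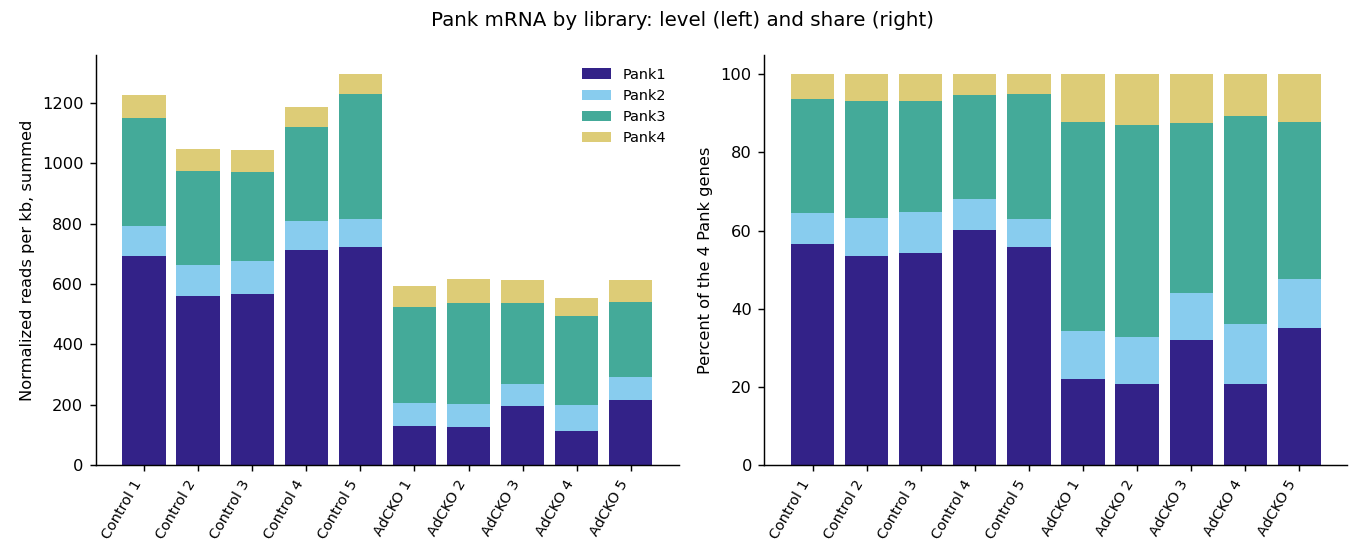
Level of the 4 Pank genes stacked by library in normalized reads per kb (left) and as percent of their sum (right), for the 5 Control and 5 AdCKO mice. Pank1, at the base of each bar, takes 53.4 to 60.1% in Control and 20.6 to 35.0% in AdCKO, and the sum falls from 1044 to 1296 in Control to 553 to 616 in AdCKO.

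Pank2, Pank3 and Pank1 each carry in an intron the gene of a microRNA of one seed family, and the mature sequences are shown to make that kinship visible. The libraries were made from polyadenylated RNA and give no value for these microRNAs. The sequences are from RefSeq on GRCm38.p6, with the seed (bases 2 to 8) in capitals.
mmu-miR-103-3p: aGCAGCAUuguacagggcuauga
mmu-miR-107-3p: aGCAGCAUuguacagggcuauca
The first is encoded by Mir103-2 in Pank2 (chr2:131288103-131288125, plus strand) and by Mir103-1 in Pank3 (chr11:35782447-35782469, plus strand), and the second by Mir107 in Pank1 (chr19:34820700-34820722, minus strand). They share the seed GCAGCAU and differ at 1 base, G22C, counted from the 5′ end of miR-103-3p. The host that fell most, Pank1, is the one that carries Mir107, whereas the hosts of miR-103-3p had log2 fold changes of -0.37 and -0.21. None of the 3 microRNA genes shares bases with an annotated exon of its host.

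Among the genes of the steps after the kinases, Ppcdc and Coasy were called lower, although Ppcdc was not called with equal totals. Ppcs, the gene of the ligase that adds cysteine (NM_026494, mm9 chr4:119091138-119095025, minus strand), measured 201, 286, 224, 242 and 271 normalized reads per kb in Control and 182, 221, 210, 202 and 203 in AdCKO. Control replicate 1 lay within the AdCKO range, and the other Control mice lay above it. Its log2 difference was -0.26 (SE 0.10, 95% interval -0.47 to -0.04) with a limma adjusted p = 0.0347, short of the threshold of 0.01, and without Control replicate 1 it was -0.32 with adjusted p = 0.0071. The exact permutation test gave p = 0.0556.

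Ppcdc, the gene of the decarboxylase (NM_176831, mm9 chr9:57260471-57287921, minus strand), measured 82.7, 69.9, 68.8, 67.3 and 71.1 normalized reads per kb in Control and 62.8, 44.9, 55.7, 46.0 and 47.3 in AdCKO. The groups did not overlap, although 1 AdCKO mouse at 62.8 came near the Control mice. Its change of -0.49 on the log2 scale (SE 0.10, limma adjusted p = 0.00102) left 71.3% of the Control mean, and was -0.01 with equal totals.

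Coasy had the highest level per kb of the 10 genes in both groups. Coasy (NM_027896, mm9 chr11:100943939-100947933, plus strand) measured 813, 937, 819, 786 and 757 normalized reads per kb in Control and 418, 436, 379, 508 and 518 in AdCKO. The means of 822 ± 68.5 and 452 ± 59.8 (SD, n = 5 each) differed by several times either SD. On the log2 scale Coasy changed by -0.87 (SE 0.10; adjusted p = 6.88e-06 by limma), and with equal totals it was -0.39 and still called. AdCKO retained 54.9% of the Control level, and without the muscle-bearing libraries the log2 fold change was -0.89.

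All 3 genes of lipoic acid synthesis fell, but Lias and Lipt2 were not called with equal totals. Lipt2 encodes the octanoyltransferase that starts the pathway (NM_026010, mm9 chr7:107307787-107309441, plus strand). It was the lowest of the 10 genes in both groups, with 63.3, 62.8, 62.3, 55.3 and 63.2 normalized reads per kb in Control and 36.1, 51.5, 39.1, 52.2 and 45.7 in AdCKO. The Control mice were within 1 of each other except for replicate 4, while the AdCKO mice were spread from 36.1 to 52.2. Lipt2 changed by -0.45 on the log2 scale (SE 0.10; adjusted p = 0.00215 by limma), with 73.2% of the Control mean left, and 0.02 with equal totals.

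Lias encodes lipoyl synthase, an iron-sulfur enzyme that uses S-adenosylmethionine (NM_024471, mm9 chr5:65782736-65800446, plus strand). It measured 347, 365, 373, 359 and 340 normalized reads per kb in Control and 216, 217, 232, 213 and 263 in AdCKO. The Control values were the tightest of the 10 genes relative to their mean, at 357 ± 13.2 (SD, n = 5), and no AdCKO mouse reached them. For Lias the log2 difference was -0.65 (SE 0.07; adjusted p = 5.5e-06 by limma), which left 63.9% of the Control mean. Equal totals reduced it to -0.17 (adjusted p = 0.0383). The AdCKO libraries with muscle transcripts held 213 to 217 and the others 232 to 263, and with the others alone the log2 fold change was -0.53.

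Lipt1, the gene of the lipoyltransferase that finishes the E2 subunits (NM_001037918, mm9 chr1:37929051-37933143, plus strand), fell most of the 3. It measured 174, 247, 176, 182 and 205 normalized reads per kb in Control and 91.6, 107, 104, 90.0 and 104 in AdCKO. The AdCKO values were close together at 99.5 ± 8.07, and the Control values of 197 ± 30.8 (SD, n = 5 each) were highest in replicate 2. Lipt1 thus changed by -0.97 on the log2 scale (SE 0.10; adjusted p = 4.5e-06 by limma), 50.6% of the Control mean, and -0.49 and still called with equal totals. The annotated exons of Lipt1, for which 1555 bases were counted, share 262 bases with exons of Mitd1 on the opposite strand. Mitd1 moved the other way, from 41.5 to 50.1 normalized reads per kb, with a log2 fold change of 0.26 that was not called (adjusted p = 0.0351).

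Ordered by level in Control, the genes ran Coasy, Pank1, Lias, Pank3, Ppcs, Lipt1, Pank2, Ppcdc, Pank4 and Lipt2. Neighbours whose ranges overlapped in that order were Lias with Pank3, Ppcs with Lipt1, and Ppcdc with Pank4. In AdCKO the order was Coasy, Pank3, Lias, Ppcs, Pank1, Lipt1, Pank2, Pank4, Ppcdc and Lipt2, with Pank1 below Pank3, Lias and Ppcs. There the ranges of Pank3 and Lias, Lias and Ppcs, Ppcs and Pank1, Pank2 and Pank4, Pank4 and Ppcdc, and Ppcdc and Lipt2 overlapped. Among all 15075 genes, the Control levels of the 10 genes ranked from percentile 60.7 for Lipt2 to percentile 96.1 for Coasy.

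The other genes of these pathways were read from the same fit in 4 lists. These lists too were chosen with earlier results of these data known, so their counts are a description. The first held 10 genes of CoA uptake, transport and turnover, of which 9 were tested, 5 fell and 1 rose (background 28.0% lower and 25.6% higher), with a median log2 fold change of -0.69. Slc5a6, the carrier that takes up pantothenate, biotin and lipoate, fell from 113 ± 14.3 to 68.3 ± 10.4 normalized reads per kb (-0.73), though with equal totals it was not called (-0.25, adjusted p = 0.0631). Of the 2 mitochondrial CoA carriers in the list, Slc25a16 fell (-0.99), and Slc25a42 had a log2 fold change of -0.64 that was not called (adjusted p = 0.01004). Its value was -0.24 without the muscle-bearing libraries, -0.16 with equal totals and -0.37 with quantile normalization. Slc25a42 was called when Control replicate 3, AdCKO replicate 3 or AdCKO replicate 5 was left out. It was also called with limma array weights (-0.82) and with a pseudocount of 0.1 (-0.65). The diphosphatases that degrade CoA fell as well, namely the peroxisomal Nudt7 (1301 ± 118 to 589 ± 45.0, -1.14) and Nudt19 (-0.69) and the mitochondrial Nudt8 (-0.97). Genes of synthesis and genes of breakdown were thus both among those that fell. Dcakd, named for a dephospho-CoA kinase domain like that of COASY, went the other way and rose from 61.9 ± 6.51 to 123 ± 14.9 (0.97, adjusted p = 3.7e-06). Aasdhppt, whose product moves the phosphopantetheine arm of CoA onto carrier proteins, had -0.27 (adjusted p = 0.0108), and the pantetheinase gene Vnn3 had -0.22. With quantile normalization both were called lower (-0.30 and -0.60), and 7 genes of the list fell. With limma array weights 7 fell as well, Aasdhppt among them. Vnn1, near 6 in both groups, was below the level tested.

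All 7 genes of mitochondrial fatty acid synthesis, the source of the octanoyl chain, fell, and all 7 were called lower under each of the 3 scalings. The background was 28.0% lower, and their median log2 fold change was -1.29. Ndufab1, the acyl carrier protein from which LIPT2 takes the chain, went from 2034 ± 175 to 952 ± 174 normalized reads per kb (-1.11). Acsf3, the malonyl-CoA synthetase that feeds the pathway, fell most (740.0 ± 64.1 to 229 ± 41.1, -1.70). The elongating enzymes lay between, with Mcat at -1.29, Oxsm at -1.16, Cbr4 at -1.12, H2-Ke6 (also called Hsd17b8) at -1.47 and Mecr at -1.30. On the scaling of the authors each of the 7 had a larger fold change than Lias, Lipt1 or Lipt2, a difference that was not tested. With quantile normalization Ndufab1, at -0.72, changed less than Lipt1, at -0.92. At an unadjusted p under 0.05 the limma count of genes that rose was also 0.

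The third list held 10 genes that supply LIAS with iron-sulfur clusters and S-adenosylmethionine, of which 8 fell and 0 rose (limma; 8 and 0 at an unadjusted p under 0.05; background 28.0% and 25.6%), with a median of -0.72. Equal totals left 3 called lower, Bola3, Iba57 and Nfs1, and 2 called higher, Glrx5 and Fdx1l, where the background was 9.77% and 60.6%. Bola3 (-0.99) and Nfu1 (-0.34), which deliver 4Fe-4S clusters late in the path, both fell, but Nfu1 was 0.14 with equal totals. The call of Nfu1 was also lost with quantile normalization (-0.17), without the muscle-bearing libraries (-0.25), and when Control replicate 2, 4 or 5 or AdCKO replicate 1 was left out (adjusted p at most 0.0111). The late-acting Isca1 (-0.67), Isca2 (-0.88) and Iba57 (-0.91) fell, as did the core scaffold and sulfur donor Iscu (-0.77) and Nfs1 (-0.84). Slc25a26, the mitochondrial carrier of S-adenosylmethionine, fell from 110.1 ± 7.16 to 80.4 ± 4.84 (-0.45), against 0.03 with equal totals. Glrx5, at 1015 ± 123 and 1008 ± 119, and Fdx1l, at 168 ± 30.5 and 177 ± 29.9, overlapped between groups and were not called. The value of Fdx1l rests on only 126 counted bases, the fewest of this list.

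The fourth list held 13 genes of the lipoylated enzymes and their partners, of which 12 were tested, 9 fell and 0 rose, with a median of -1.04 (limma; 10 and 1 at an unadjusted p under 0.05; background 28.0% and 25.6%). Among genes whose proteins carry the lipoyl group, Dlat of pyruvate dehydrogenase fell from 2198 ± 86.9 to 859 ± 79.2 normalized reads per kb (-1.36), Dlst of 2-oxoglutarate dehydrogenase from 5566 ± 214 to 2340 ± 512 (-1.27), and Gcsh, the H protein, from 668 ± 97.7 to 317 ± 19.8 (-1.06). Pdhx had -0.80 and Dld, the shared E3 subunit, -0.97. The E1 subunit genes Pdha1 (-1.63), Pdhb (-1.02), Ogdh (-1.11) and Bckdha (-1.69) also fell, although Pdhb was at -0.22 and not called with quantile normalization (adjusted p = 0.0493). The branched-chain complex was uneven. Its lipoylated E2 gene Dbt had -0.29 (adjusted p = 0.0212), and Bckdhb, the partner of Bckdha in the E1 heterotetramer, had 0.26 (adjusted p = 0.0269) and was called higher with equal totals (0.74) and without the muscle-bearing libraries (0.45). Amt of the glycine cleavage system had -0.16, and Gldc, at about 2 to 3.4, was below the level tested.

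**Figure D3:**
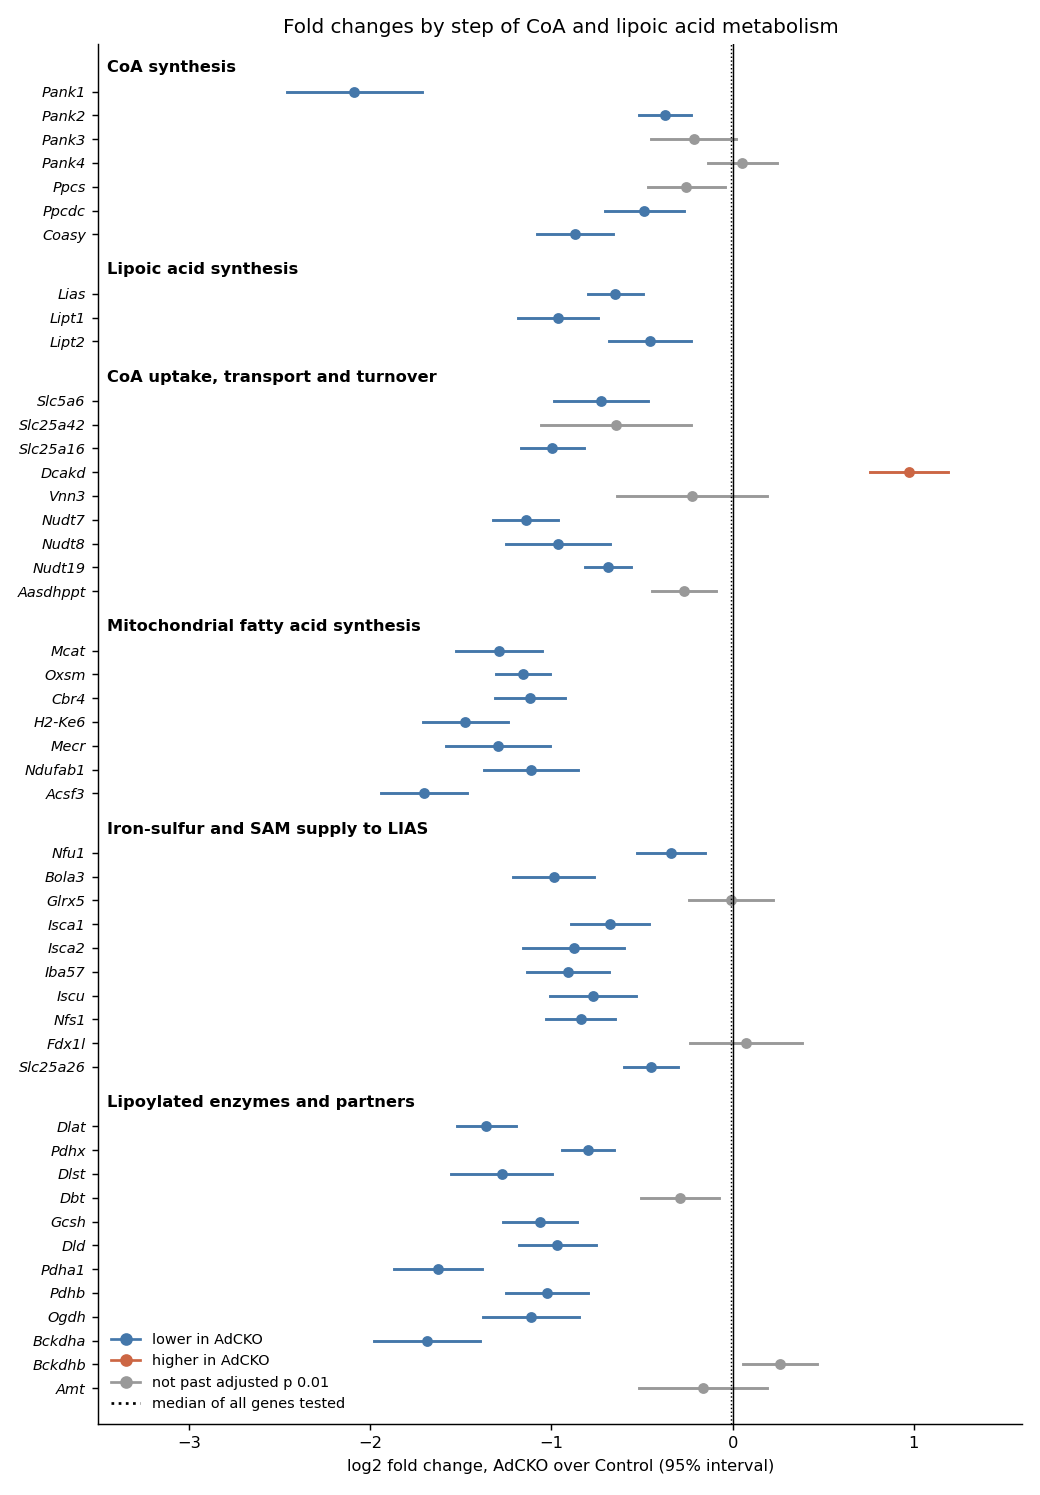
Log2 fold change of AdCKO over Control with 95% intervals for the 10 genes and for the tested genes of 4 neighbouring lists, on the scaling of the authors (n = 5 mice per group). Blue points were called lower, the orange point (Dcakd) was called higher and grey points did not pass an adjusted p of 0.01; all 7 genes of mitochondrial fatty acid synthesis lie between -1.70 and -1.11, while with equal totals some other blue points, Pank2 and Lipt2 among them, change sign.

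Because the scaling decided several calls, the fold changes were also read relative to the median of all genes under each scaling. The median was 0.46 with equal totals, and relative to it the values were -2.07 for Pank1, -0.95 for Lipt1, -0.85 for Coasy, -0.63 for Lias, -0.47 for Ppcdc, -0.44 for Lipt2, -0.36 for Pank2, -0.24 for Ppcs, -0.19 for Pank3 and 0.07 for Pank4. The order of the 10 genes was that of the scaling by the authors. This follows almost by construction, because equal totals apply a factor to each whole library, and it is no separate check. With quantile normalization, which moved the median by -0.07, the same 7 genes were called, and relative to the median Pank3 was at 0.03 and Pank1 at -1.88. Without AdCKO replicates 1, 2 and 4, a choice made after the data were seen, the same 7 genes were called lower, and the log2 fold changes not given above were -0.40 for Pank2, 0.12 for Pank4, -0.23 for Ppcs, -0.47 for Ppcdc, -0.89 for Lipt1 and -0.52 for Lipt2.

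**Figure D4:**
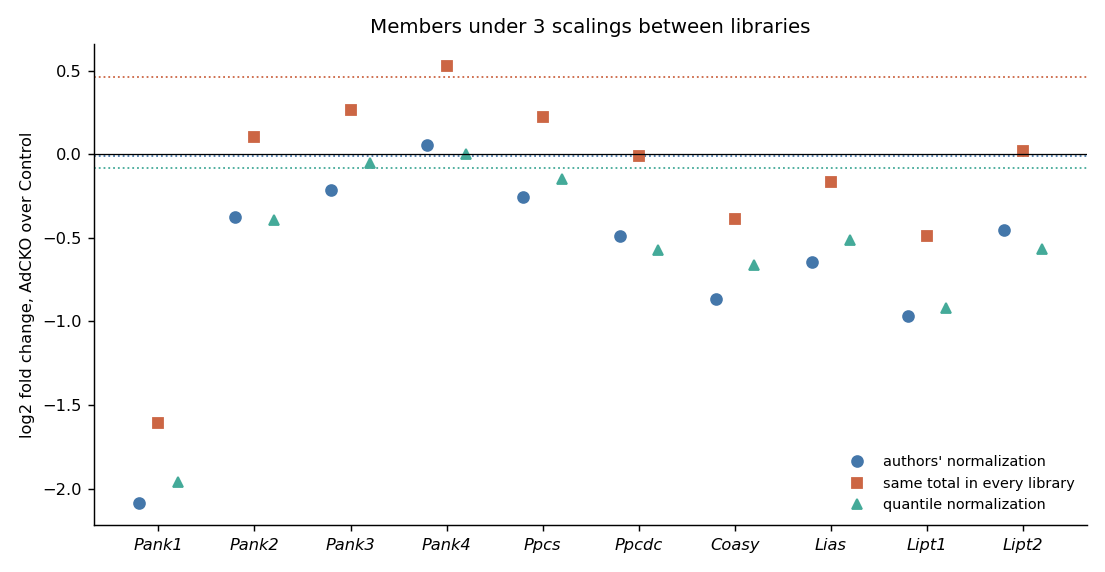
Log2 fold change of AdCKO over Control for the 10 genes under the scaling of the authors (circles), equal library totals (squares) and quantile normalization (triangles), with the median of all genes tested under each as a dotted line in the same colour. With equal totals, the line lies at 0.46 and Pank2, Pank3, Ppcs and Lipt2 sit above 0 but below the line.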

How the data were processed

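Polyadenylated RNA from the iBAT of 5 Control and 5 AdCKO mice was profiled by RNA-seq (1 library each). The authors mapped reads to mm9 with STAR, built tag directories with HOMER, used iRNA-seq to count reads in exons, and normalized the result with DESeq2. Versions are not given in the sources used here. The deposited unit is therefore a signal, normalized reads per kb of exon, rather than counts. Whole reads could not be recovered from them (at most 23.6% of values lay near a whole-read step), so depth before normalization is unknown and no counting interval is given. The fold change and adjusted p columns and the lists of called genes that the authors deposited hold their own comparisons and were not used.

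A pseudocount of 1 was added before log2, and 11244 of 15075 genes with a mean of at least 10 in either group were tested with limma 3.58.1 (intensity trend, two-sided) in R 4.3.3, with Benjamini-Hochberg adjustment and a threshold of 0.01. Fold changes on this scale understate the change of low genes. The fit was tested on simulated data. Single genes were also compared by exact permutation of the mice. The p-values of both tests set the difference between groups against the spread between mice. The alternatives were a pseudocount of 0.1 or 10, other filters, the same total of normalized reads in every library, quantile normalization, limma without trend, robust or with array weights, a replicate block, a threshold of 0.05, and each library left out. All 10 members, Crls1, the genes of 4 pathway lists and genes overlapping a member are named. Marker lists are given as sums, with a few markers named. The members and lists were chosen with earlier results of these data known. Starts in the table count from 0 and are given from 1. Motifs were searched in the 250 bases before each start in the RefSeq table. Plots were made in Python 3.11.15 (matplotlib 3.10.9).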

Additional observations from a re-analysis of the deposited data

Results flagged for a closer look

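Of the 20 groups formed by the 10 genes and the 2 genotypes, 3 held a mouse that stood apart from the other 4 by Dixon's criterion, which chance alone meets in about 1 in 20 groups. Pank2 measured 84.7 normalized reads per kb in AdCKO replicate 4, against 73.6 to 76.3 in the other AdCKO mice. Ppcdc measured 82.7 in Control replicate 1, against 67.3 to 71.1 in the other Control mice. Lipt2 measured 55.3 in Control replicate 4, against 62.3 to 63.3 in the others. Each of the 3 values lay on its own group's side of the other group, and Pank2, Ppcdc and Lipt2 remained called lower when any 1 library was left out.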

How the results depend on the processing

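Scaling mattered most. With the same total in every library, 3 of the 10 genes were lower and 1 higher, against 7 and 0. Log2 fold changes were then 0.10 for Pank2, 0.27 for Pank3, 0.53 for Pank4, 0.22 for Ppcs, 0.018 for Lipt2, -0.014 for Ppcdc and -0.17 for Lias. In the pathway lists they were 0.22 for Vnn3, 0.21 for Aasdhppt, 0.19 for Dbt, 0.30 for Amt, 0.14 for Nfu1, 0.47 for Glrx5 and 0.028 for Slc25a26. The genes supplying LIAS then had 3 lower and 2 higher, and all genes 1098 lower and 6811 higher, against 3152 and 2879. Of the lipoylated enzymes and partners, 1 gene was called higher under some settings. It was Bckdhb with the same total, quantile normalization, a threshold of 0.05 and without the muscle-bearing libraries, and Gldc with no filter or a mean of at least 1. Leaving out 1 library gave 0 to 1. Quantile normalization put Glrx5 at 0.30. Ppcs passed a threshold of 0.05 at -0.26. Leaving out 1 library gave -0.32 to -0.20 for Ppcs, -0.0902 to 0.040 for Glrx5 and -0.042 to 0.14 for Fdx1l. Without the muscle-bearing libraries Glrx5 was 0.11 and Fdx1l -0.091, and all genes had 2191 lower and 2083 higher. Leaving out 1 library did not change the call of any other of the 10 genes. Mice with the same number did not deviate together (correlations -0.27 to 0.10, with 0 of 5 highest for their own number). With 5 mice per group, this check cannot exclude a shared batch. A replicate block left 7 of the 10 genes lower, with 2838 lower and 2592 higher over all genes. The pseudocount and limma settings changed no call of the 10 genes. The causes of the other changes were not tested.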
